A study of Mus musculus with 8 samples.

Results

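A stretch of mouse chromosome 7, from 7000001 to 11000000 on the mm9 build, was examined in 8 lists of MNase-protected positions from male germ cells. Its members were every called position of a list whose summit lay in these 4 Mb, 35487 of the 37444400 positions on chromosomes 1 to 19 and X in the 8 lists together. The stretch was chosen by the summit values of condensing nucleosomes, which were lower there in H2A.L.2-less than in WT cells. The difference in condensing nucleosomes is therefore given as a description, and nothing rests on it. What remained to be described was where it began and ended, how it was built up, and what the other 6 lists held at the same places.

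The groups were H2A.L.2-less and WT spermatocytes, H2A.L.2-less and WT round spermatids, and H2A.L.2-less and WT condensing spermatids, all from mouse testis, with 1 list per group and fragment class. At the condensing stage nucleosome-sized fragments of 130 to 170 bp and small structures of 40 to 80 bp were sequenced apart, so that 4 pairs of lists could be set side by side. The cells were fractions enriched for each stage, and particles were separated on a sucrose gradient. The sources used here do not give the strain, age or number of animals, or the allele behind the H2A.L.2-less cells. DNA positions hold no marker by which the purity of a fraction could be checked, and the H2A.L.2 genes were not located on mm9, so the loss itself was not checked here.

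Micrococcal nuclease (MNase) cuts DNA between particles and leaves the DNA that is wrapped by histones or otherwise covered. During spermiogenesis most histones are removed, transition proteins take their place for a time, and protamines then pack the sperm genome. H2A.L.2 is a histone H2A variant made late in male germ cells. It forms dimers with the testis variant TH2B and is known for opening nucleosomes to transition proteins.

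Each position carried a summit value, which is the authors' coverage at its highest point, and a fuzziness score, their measure of how far fragments scatter around it. Summit values had no scale common to the lists. A height is therefore a summit value divided by the median of its own list, and a genotype ratio is the log2 of the H2A.L.2-less over the WT mean height. The 8 lists held 3779744 to 5385833 positions on chromosomes 1 to 19 and X. List medians were 160 to 240 in all lists but WT small structures, where the median was 488. The first percentile of the summit values, a guide to the lowest coverage that was called, stood at 0.557 to 0.84 of the list median. A mean height therefore describes called positions and leaves out most weaker ones. The depth of single libraries is unknown. With 1 list per group no difference has a replicate check, no test was made, and positions or steps are not replicates.

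The 4 Mb were thinly covered with positions, least so in WT condensing nucleosomes. In H2A.L.2-less spermatocytes 95.9 positions lay in an average 100 kb, against 92.6 in WT spermatocytes, which was 0.486 and 0.432 of the autosomal density of the same lists. Round spermatid densities were 139 per 100 kb in H2A.L.2-less cells and 121 in WT cells, or 0.716 and 0.551 of the autosomal density. Condensing nucleosomes had 120 in H2A.L.2-less and 141 in WT cells, or 0.753 and 0.906 of it. Small structures had 69.6 in H2A.L.2-less and 108 in WT cells, or 0.415 and 0.491. The order of the genotypes thus turned between the earlier and the condensing stage.

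In log2 terms the number of positions in the region differed between H2A.L.2-less and WT lists by 0.05 in spermatocytes, where the autosomes differed by -0.12. It differed by 0.20 in round spermatids, with -0.18 over the autosomes. In condensing nucleosomes it was -0.23 against 0.04 over the autosomes, and in small structures -0.63 against -0.39. Relative to the autosomes, the number in H2A.L.2-less over WT lists was thus higher in the region at both earlier stages, and lower in both fragment classes of the condensing stage. Whether the animals behind the libraries differed in copy number along these 4 Mb was not tested, and such a difference would enter both heights and numbers.

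Along the 40 steps of 100 kb the positions were uneven in the same way in all 8 lists. From 7000001 to 7600000, from 9000001 to 10100000 and from 10400001 on most steps were well filled, with thin parts between them. From 7600001 to 9000000 WT round spermatids had 1035 positions in 14 steps, with 32 in the step from 8400001 to 8500000. H2A.L.2-less round spermatids had 1018 in the same part and 24 in the same step. The emptiest step in 6 of the lists ran from 9400001 to 9500000. There, H2A.L.2-less round spermatids had 22 positions and WT ones 30. Condensing nucleosome positions numbered 9 in H2A.L.2-less cells and 16 in WT cells, and small structures 16 and 26. In both spermatocyte lists the emptiest step was from 8400001 to 8500000, with 13 positions in each.

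The fullest step differed between genotypes in all pairs but small structures. Within each genotype it was the same at both earlier stages and another one in condensing nucleosomes. H2A.L.2-less spermatocytes had 219 positions from 7400001 to 7500000, and H2A.L.2-less round spermatids 289 in the same step. In WT spermatocytes the fullest step was from 7000001 to 7100000, with 199 positions, and this was so for WT round spermatids with 237. H2A.L.2-less condensing nucleosomes were most numerous from 9100001 to 9200000, with 258, and WT ones from 7300001 to 7400000, with 314, a step that held 227 in H2A.L.2-less cells. Small structures of both genotypes were most numerous from 7000001 to 7100000, with 232 in H2A.L.2-less and 292 in WT cells.

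**Figure D1:**
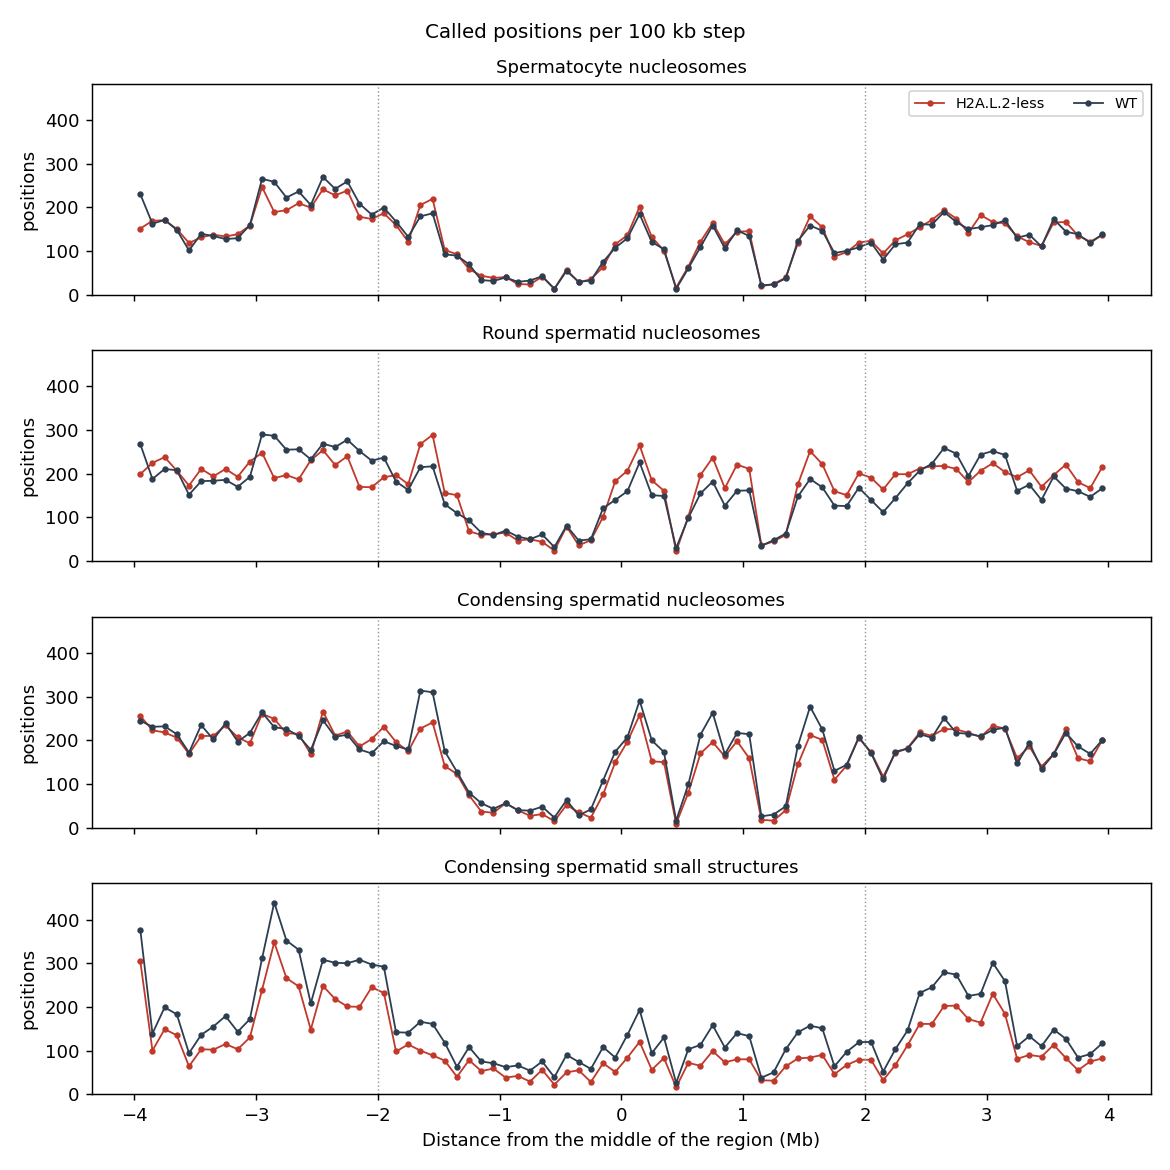
Called positions per 100 kb step (vertical axis) against distance from the middle of the region in Mb, for H2A.L.2-less (red) and WT (dark) lists at each stage and fragment class. Dotted lines mark the ends of the 4 Mb. All 8 lists thin out in the middle part. Among condensing nucleosomes the H2A.L.2-less line lies below the WT line in 17 of the 18 steps with low ratios, by as much as 227 against 314 positions. It also does so in 14 of the other 18 judged steps, and the share over all autosomal steps was not computed.

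Over the whole 4 Mb, mean heights in condensing nucleosomes were 1.12 in H2A.L.2-less and 1.28 in WT cells, a genotype ratio of -0.19. At neither earlier stage was the mean over all positions lower in H2A.L.2-less cells. Their spermatocytes had a mean height of 1.17, against 1.14 in WT spermatocytes, a ratio of 0.04, and their round spermatids had 1.26, against 1.22 in WT round spermatids, again 0.04. Restricted to positions at or above the list median, the round spermatid ratio was -0.02. Small structures had a mean height of 1.04 in H2A.L.2-less and 1.07 in WT cells, with a ratio of -0.03. Among 595 windows of 4 Mb on chromosomes 1 to 19, this one had rank 1 from the bottom in the condensing nucleosome ratio of means, of medians and of position numbers. Since condensing heights chose the region, their ranks restate that choice. In small structures the window had rank 1 from the bottom in position number and rank 11 in mean height, but rank 252 in median height. In spermatocytes and round spermatids its ratios of means ranked 575 and 577, which is near the top.

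A 100 kb step was called low when it held at least 20 positions in both lists and its genotype ratio was at or below -0.1. In condensing nucleosomes 18 of the 36 steps that could be judged were low, against 0.188% of the 23970 steps of chromosomes 1 to 19. Since this contrast chose the region, nothing is read from that count. The 45 low steps of all autosomes included these 18, or 40% of them. In small structures 14 of 39 steps were low, against 1.27% of all steps. By the ratio of median instead of mean heights 14 of 39 were low as well, against 19.7% of all steps. The ratio reached -0.1 in 1 of 37 spermatocyte steps (0.696% of all) and in 0 of 40 round spermatid steps (1.49% of all). With steps of 50 kb, 3 of 69 round spermatid steps were low, against 3.84% of all steps of that length. With positions at or above the list median 5 of 32 were, against 3.38% of all.

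**Figure D2:**
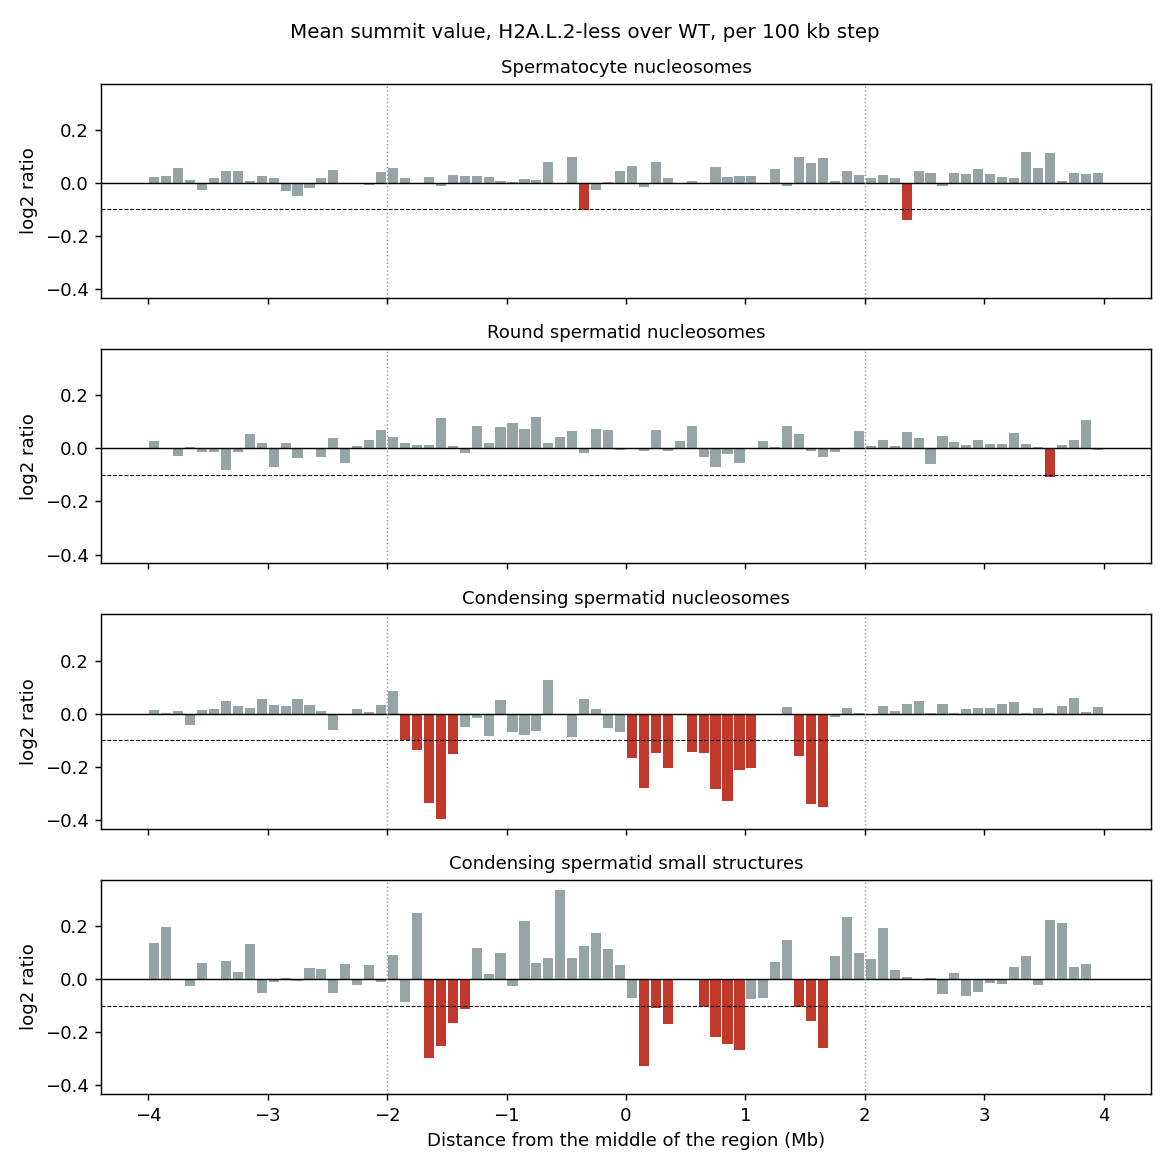
Genotype ratio of mean heights (log2, H2A.L.2-less over WT) per 100 kb step against distance from the middle of the region in Mb, in 4 panels by stage and fragment class. Red bars are at or below -0.1 (dashed line), and steps with fewer than 20 positions in a list have no bar. Condensing nucleosomes show 3 groups of red bars between the dotted ends of the region, down to -0.40, and small structures show red bars at the same places.

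The low condensing steps fell into 3 stretches. The first ran from 7100001 to 7600000, with 5 low steps of 5 and a mean ratio of -0.22. The longest ran from 9000001 to 10100000, with 10 low steps and a mean ratio of -0.21, and its remaining step held too few positions to be judged. The last ran from 10400001 to 10700000, with 3 low steps of 3 and a mean ratio of -0.28. Ranked by the number of low steps, they were the first 3 of 28 such stretches on chromosomes 1 to 19, and no other held more than 2. The region was chosen by these values, so this order restates the choice.

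The rule used joined low steps over a gap of at most 1 step and kept the stretch with the most low steps. This stretch began at 9000001 and ended at 10100000, so the first and last stretches lay outside these limits. A step function with 2 breakpoints, fitted by least squares from 3 to 20 Mb, placed the begin at 7100001 and the end at 10700000, and so did joining the 3 stretches over any gap. Inside these breakpoints the mean ratio was -0.14, and outside them it was 0.02. In steps of 20 kb, chosen after the data were seen, the first run of low steps began at 7160001 and the last ended at 10680000. From 7140001 to 7160000 the ratio was 0.03 and in the next 20 kb it was -0.21. From 10660001 to 10680000 it was -0.33, then -0.06, and from 10700001 on it was 0.01. A run here meant at least 2 low steps, each with at least 10 positions in both lists. The right outer edge was thus passed between neighbouring 20 kb steps. The left one was less sharp. There the ratio was 0.06 again from 7200001 to 7220000, then -0.15 and -0.06, and -0.22 from 7260001 to 7280000.

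In steps of 100 kb both outer edges were passed between neighbouring steps. Just outside the first stretch, from 7000001 to 7100000, mean heights were 1.14 in H2A.L.2-less and 1.07 in WT cells, and just inside they were 1.07 and 1.15. Just inside the end of the last stretch they were 1.20 in H2A.L.2-less and 1.54 in WT cells, and in the next step, from 10700001 to 10800000, 1.07 and 1.08. The inner edges differed among themselves. From 7500001 to 7600000 the ratio was -0.15, and in the next step -0.05, which is just outside the limit of -0.1. From 8900001 to 9000000 it was -0.07, and in the next step -0.17. From 10300001 to 10400000 it was 0.02, and in the next step -0.16, a change much like that at the outer left edge. The end at 10100000 could not be judged, since the next step held 18 positions in H2A.L.2-less cells and 26 in WT cells. The step from 7100001 to 7200000, at -0.10, was the member nearest the limit on the inside, and the nearest one on the outside was the step from 8500001 to 8600000, at -0.09.

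The 5 lowest steps lay in all 3 stretches. From 7400001 to 7500000 mean heights were 1.21 in H2A.L.2-less and 1.59 in WT condensing nucleosomes (ratio -0.40), with 241 and 310 positions. From 10600001 to 10700000 they were 1.20 and 1.54 (-0.35), and from 10500001 to 10600000 1.21 and 1.53 (-0.34). From 7300001 to 7400000 they were 1.18 and 1.49 (-0.34), and from 9800001 to 9900000 1.11 and 1.39 (-0.33). These are also among the steps where WT nucleosomes were highest. The H2A.L.2-less values were still slightly above the mean of 1.12 over the 2 Mb on either side in 4 of the 5.

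The 5 highest steps included 4 thin ones. From 8300001 to 8400000 the ratio was 0.12, where H2A.L.2-less cells had 31 positions and WT cells 48. It was 0.09 from 7000001 to 7100000, where 231 and 198 positions lay. The ratio was 0.05 from 8600001 to 8700000 (35 and 28 positions) and also from 7900001 to 8000000 (34 and 43). It was 0.02 from 10300001 to 10400000 (40 and 49).

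The thin steps gave few low ratios in any list. Of the 16 steps with fewer than 100 positions in WT round spermatids, 12 could be judged in condensing nucleosomes. Of these 1 was low, and their median ratio was -0.04. Of the 24 fuller steps 17 were low, with a median of -0.16. In small structures 0 of 15 thin steps and 14 of 24 fuller ones were low. In the thin middle part mean heights were 1.05 in H2A.L.2-less and 1.07 in WT condensing nucleosomes, while the first percentiles of these lists lay at 0.833 and 0.84. From 7600001 to 9000000, H2A.L.2-less condensing cells had 773 and WT ones 928 nucleosome positions (log2 ratio -0.26), while the ratio of heights was -0.04. In the 3 low stretches together the ratio of numbers was also -0.26, with 3270 in H2A.L.2-less and 3916 in WT cells.

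Since the stretches were chosen by the condensing ratio, the condensing lists had to differ there. The heights of all lists are given as a description. Over the 3 low stretches mean heights in spermatocytes were 1.24 in H2A.L.2-less and 1.21 in WT cells, and in round spermatids 1.35 in H2A.L.2-less and 1.34 in WT cells. WT condensing nucleosomes stayed at 1.37, and H2A.L.2-less ones were at 1.15. Over the 2 Mb on either side, all 6 nucleosome lists lay between 1.05 and 1.12. The stretches were thus raised above their surroundings in 5 of the 6 nucleosome lists, and in H2A.L.2-less condensing nucleosomes they were nearly level with them.

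The change from round to condensing spermatids can be given for each genotype, although the stretches were chosen by the condensing ratio and the difference in this change restates that choice. Within the low stretches, H2A.L.2-less mean heights changed by -0.23 on the log2 scale and WT ones by 0.04. On either side they changed by 0.03 in H2A.L.2-less and 0.02 in WT cells. In the rest of the region the values were -0.01 in H2A.L.2-less and 0.04 in WT cells. The step before, from spermatocytes to round spermatids, gave 0.12 in H2A.L.2-less and 0.14 in WT cells in the same stretches. The number of positions changed from round to condensing spermatids by -0.18 in H2A.L.2-less and 0.38 in WT cells, where the autosomes changed by -0.29 and -0.51. Fragments of a stated size were chosen at the condensing stage, which the labels do not give for the earlier ones, so stage and fragment selection cannot be told apart.

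**Figure D3:**
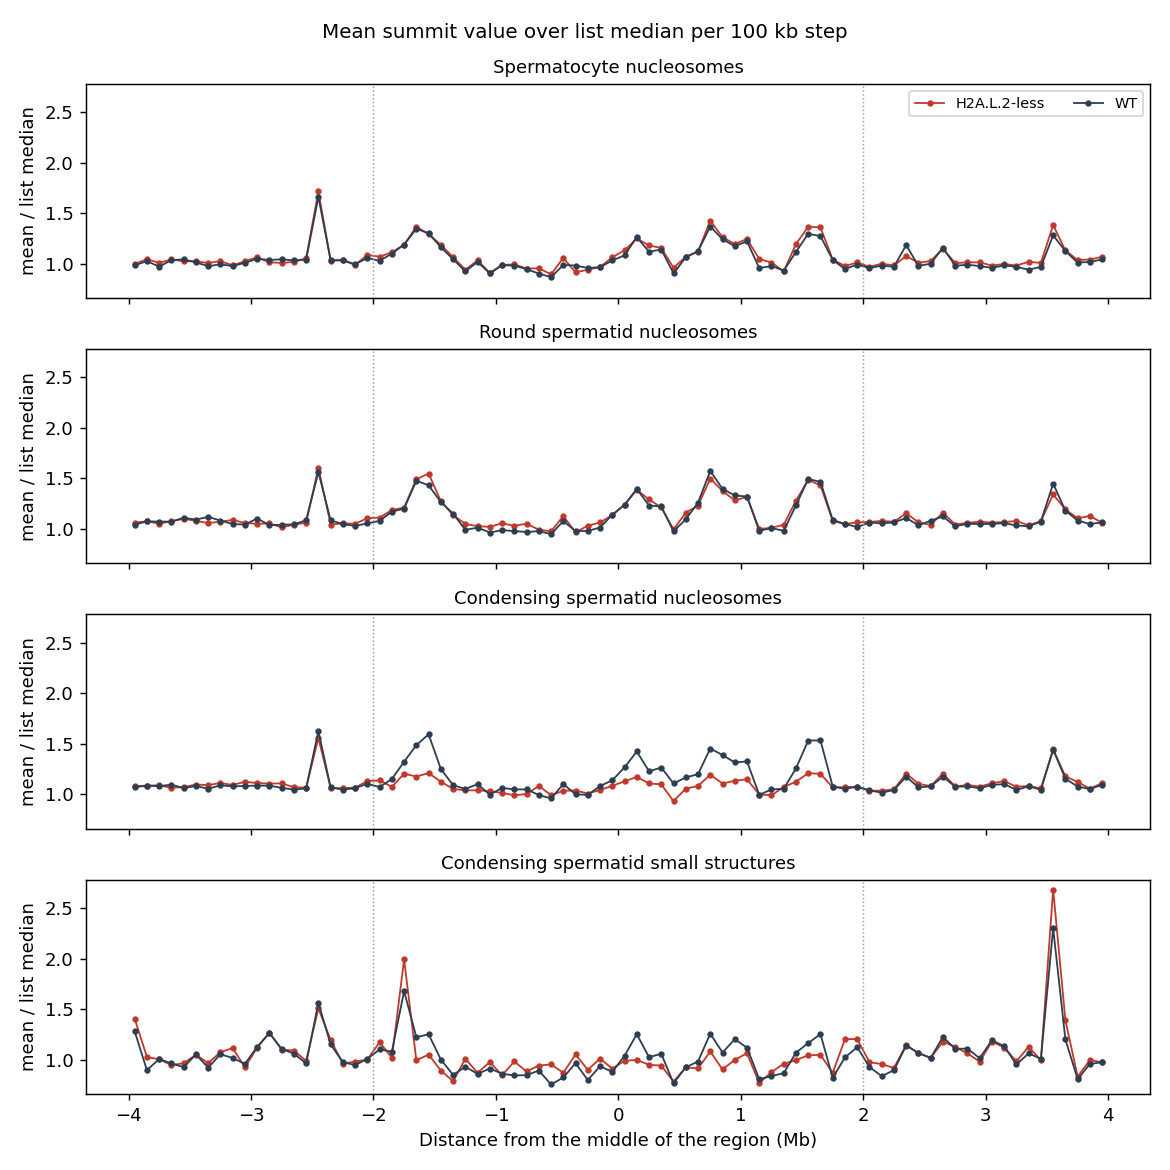
Mean height (summit value over list median) per 100 kb step against distance from the middle of the region in Mb, for H2A.L.2-less (red) and WT (dark) lists. In the 4 lists of the earlier stages and in WT condensing nucleosomes 3 rises stand out inside the dotted ends, up to 1.59 in WT condensing nucleosomes, and in H2A.L.2-less condensing nucleosomes no step inside these ends passes 1.21.

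Across steps, the condensing ratio was lowest where nucleosomes of the earlier stages were highest. Over the 36 judged steps of the region, it correlated with the mean height in H2A.L.2-less round spermatids at Pearson's r of -0.93 (Spearman's rho -0.91). With WT round spermatids r was -0.91 (rho -0.89), with H2A.L.2-less spermatocytes -0.90 (rho -0.91) and with WT spermatocytes -0.92 (rho -0.90). The steps are neighbours on a chromosome and share base composition and mappability, so these values describe the region only, and 12 relations were computed inside it and as many beside it. Over the 40 steps on either side r was -0.48 (rho 0.03) for H2A.L.2-less and -0.48 (rho -0.09) for WT round spermatids. The condensing ratio chose the region, and on either side it only ran from -0.06 to 0.06. A weaker correlation there can follow from that choice, so nothing is read from the contrast.

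On either side 2 steps stood as high in round spermatids as the stretches did, and neither was low. From 6500001 to 6600000 mean heights in round spermatids were 1.61 in H2A.L.2-less and 1.56 in WT cells. Condensing nucleosomes had 1.56 in H2A.L.2-less and 1.63 in WT cells there, and the ratio of -0.06 was the lowest of the 40 steps. From 12500001 to 12600000 round spermatids had 1.34 in H2A.L.2-less and 1.45 in WT cells. Condensing nucleosomes had 1.45 in H2A.L.2-less and 1.44 in WT cells, a ratio of 0.00.

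**Figure D4:**
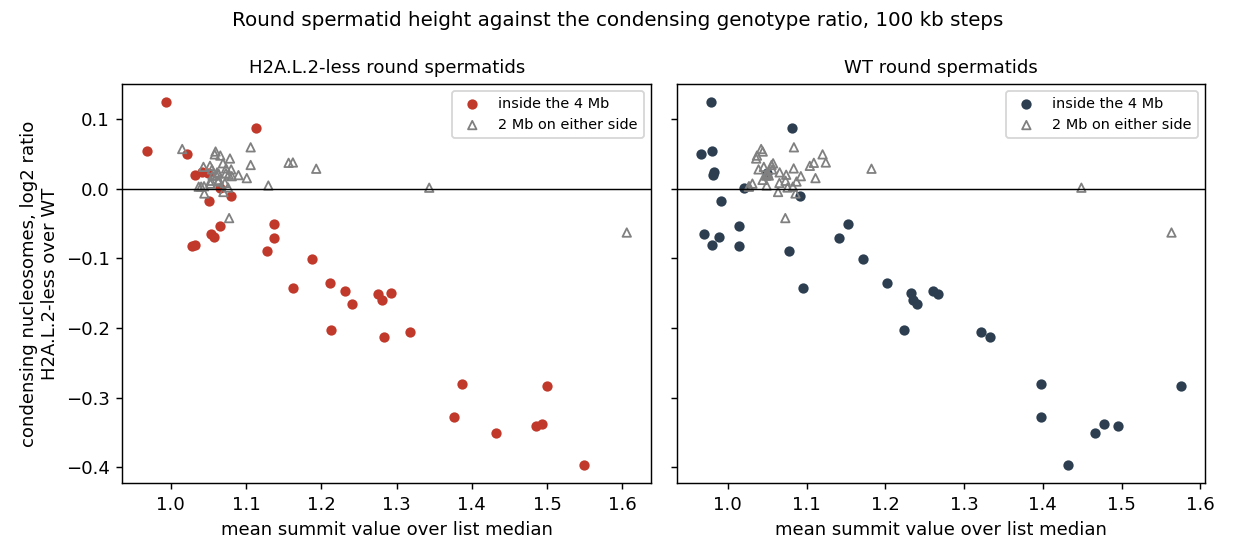
Condensing genotype ratio (log2, H2A.L.2-less over WT, vertical axis) against the mean height in round spermatids of each genotype (horizontal axis), 1 point per 100 kb step. Filled circles are the 36 judged steps of the 4 Mb and open triangles the 40 steps on either side. The circles run down to -0.40 as height rises, and the 2 triangles at high mean values stay at -0.06 and 0.00. Median round spermatid heights in these 2 steps were only 1.02 to 1.07.

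Single positions showed what the means were made of. In the low stretches, positions at or above 2 list medians made up 1.59% of the condensing nucleosome positions in H2A.L.2-less cells (52 of 3270, 95% Wilson interval 1.22% to 2.08%). In WT cells they made up 11.1% (436 of 3916, 10.2% to 12.2%). The stretches were chosen by these same heights, so this contrast restates the choice. These intervals, and those that follow, cover counting error only. In round spermatids the share was 11.9% in H2A.L.2-less and 12.4% in WT cells, and in spermatocytes 8.05% in H2A.L.2-less and 7.27% in WT cells. On either side, shares in the 6 nucleosome lists were 0.898% to 1.58%. The whole upper part of the heights was lower. The 90th percentile was 1.52 in H2A.L.2-less and 2.04 in WT condensing nucleosomes, and the 99th was 2.13 in H2A.L.2-less and 3.32 in WT ones. The 10th percentile, which lies near the calling limit, was 0.875 in H2A.L.2-less and 0.88 in WT cells.

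**Figure D5:**
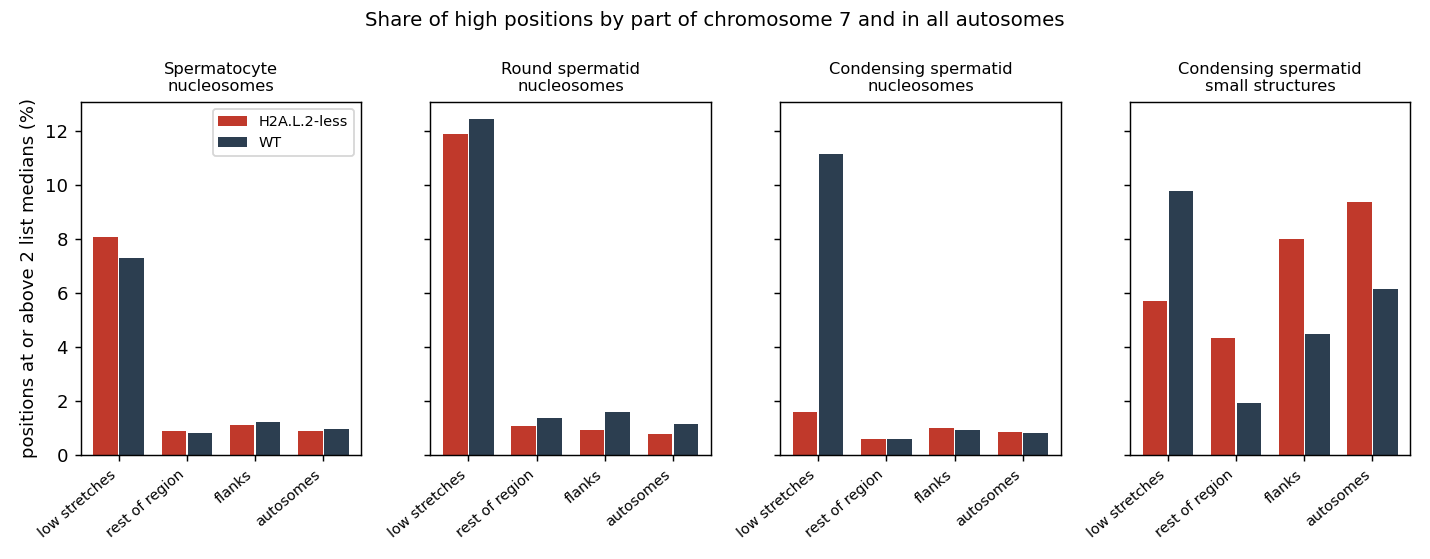
Share of positions at or above 2 list medians, in percent, in the 3 low stretches, the rest of the 4 Mb, the 2 Mb on either side and all autosomes, with H2A.L.2-less bars (red) left of WT bars (dark). In condensing nucleosomes the low stretches stand at 1.59% against 11.1%, and in small structures the order of the genotypes in the low stretches is the opposite of that in the other parts.

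Positions called at the same place in both genotypes were compared as well. For condensing nucleosomes these are heights by which the stretches were chosen, so the comparison restates that choice. Of the 3916 WT condensing nucleosome summits in the low stretches, 1491 had an H2A.L.2-less summit within 40 bp, and 74.4% of these were lower in H2A.L.2-less cells. Their median ratio of heights was -0.28 (log2), with quartiles of -0.61 and 0.00. On either side the median was 0.03 and 46.7% were lower, and over the autosomes 0.02 and 47.3%. In the 3 stretches one by one the medians were -0.26, -0.24 and -0.37. In spermatocytes the median in the low stretches was 0.05, and in round spermatids it was 0.08.

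The highest condensing nucleosome position of the region was not lower in H2A.L.2-less cells. It lay at 7230881 in both genotypes, with a height of 18.7 in H2A.L.2-less and 16.2 in WT cells, and at the same place spermatocytes had 4.36 in H2A.L.2-less and 6.71 in WT cells. In spermatocytes the highest position of the region was at 10728631 in both lists, with 7.07 in H2A.L.2-less and 6.76 in WT cells. Round spermatids had theirs at 10603561 in H2A.L.2-less cells, with 5.71, and at 10603571 in WT cells, with 6.85. Within 40 bp of these, condensing nucleosomes reached 3.44 in H2A.L.2-less and 4.58 in WT cells. Among small structures the highest position of the region was at 7230931 in H2A.L.2-less cells, with 28.6, and at 7230651 in WT cells, with 21.3.

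Small structures, from lists that the choice of the region did not use, had lower mean heights in H2A.L.2-less cells at most of the same steps. Both fragment classes came from condensing spermatids of the same genotypes. The labels do not say whether they came from the same cells, so they are not taken as replicates. Of the 18 steps that were low in condensing nucleosomes, 17 had a ratio below 0 in small structures and 13 were at or below -0.1, with a median of -0.16. Of the other 18 judged steps 2 were below 0 and 1 was low, with a median of 0.09. Over all autosomal steps the median was 0.04, and of 23961 steps 6723 were below 0 and 304 at or below -0.1. The exception among the 18 was the step from 7200001 to 7300000, at 0.25, which holds the region's highest small structures of both genotypes. By median heights the ratio was instead above 0 in the steps beginning at 9500001 (0.21), 10000001 (0.18), 10400001 (0.02) and 10500001 (0.04). By medians the last low stretch as a whole had -0.02 and all low stretches together -0.11, where the median over autosomal steps was -0.02. Across the 36 steps the ratios of small structures and condensing nucleosomes correlated at r of 0.82 (rho 0.82), and on either side at -0.06 (rho -0.24). Since condensing ratios varied little on either side, nothing is read from that contrast. Across the 36 steps the spermatocyte ratio correlated with the condensing ratio at -0.20 (rho -0.20), and the round spermatid ratio at 0.32 (rho 0.36).

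The lowest small-structure step ran from 9100001 to 9200000, with mean heights of 0.998 in H2A.L.2-less and 1.25 in WT cells (ratio -0.33), and with 120 and 193 positions. The highest ran from 8400001 to 8500000, at 0.34, where H2A.L.2-less cells had 22 positions and WT cells 39. Small structures called within 40 bp in both genotypes had a median ratio of -0.36 in the low stretches, where 75.2% were lower in H2A.L.2-less cells. The median was -0.07 in the rest of the region, -0.12 on either side and -0.11 over the autosomes. Positions at or above 2 list medians were 5.7% of H2A.L.2-less and 9.76% of WT small structures in the low stretches. On either side the order was the opposite, with 7.99% in H2A.L.2-less and 4.46% in WT cells. The list medians were 160 in H2A.L.2-less and 488 in WT cells, and the first percentiles lay at 0.6 and 0.557 of them.

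At the earlier stages the extreme ratios were small, and most of them came from thin steps. The lowest spermatocyte ratio, -0.10, was from 8600001 to 8700000, where H2A.L.2-less cells had 28 positions and WT cells 29, and the highest, 0.10, was from 8500001 to 8600000, with 57 and 54. In round spermatids the lowest, -0.07, was from 9700001 to 9800000, where H2A.L.2-less cells had 237 positions and WT cells 182. The highest, 0.12, was from 8200001 to 8300000, with 50 positions in each list. Of the 18 steps low in condensing nucleosomes, 4 were below 0 in spermatocytes and 9 in round spermatids. Over all autosomal steps 11016 of 23995 were below 0 in spermatocytes and 14187 of 23994 in round spermatids. In all 18 low steps round spermatid positions were more numerous in H2A.L.2-less than in WT cells. Among the other 18 judged steps they were fewer in 11. The share over all autosomal steps was not computed, so nothing is read from these counts.

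Other measures of the positions differed less between genotypes. Median fuzziness of condensing nucleosomes in the low stretches was 54.7 in H2A.L.2-less and 54.8 in WT cells, and on either side 54.7 and 54.6. In spermatocytes it was 52.2 in both genotypes, and in round spermatids 52.5 in H2A.L.2-less and 52.2 in WT cells. Small structures had 48.4 in H2A.L.2-less and 50.6 in WT cells, a gap that was also there on either side, with 49.3 and 51.7. The SD of a step's mean fuzziness over autosomal steps was 0.663 to 2.33 in the 8 lists, and in the nucleosome lists every genotype difference in the low stretches was smaller than the lowest of these. Neighbouring summits up to 1000 bp apart had a median distance of 260 bp in H2A.L.2-less and 250 bp in WT condensing nucleosomes in the low stretches. In round spermatids it was 250 and 240 bp, and in small structures 250 and 230 bp. In spermatocytes it was 290 bp in H2A.L.2-less and 300.0 bp in WT cells.

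Summit places were shared between genotypes more often than chance in all 4 pairs, and the ratio to chance was higher in the region than on either side. Of the WT condensing nucleosome summits of the whole region, 35.1% had an H2A.L.2-less summit within 40 bp (interval 33.8% to 36.3%), where moving one list by 5000 bp gave 16.0%. On either side the share was also 35.1% and chance 18.5%, so the ratios of 2.18 in the region and 1.90 beside it differ by the shifted value and not by the share. In the low stretches alone 38.1% were matched, 2.03 times chance. In spermatocytes 55.9% of the region's summits were matched (3.98 times chance, 3.17 on either side), in round spermatids 55.4% (3.11 and 2.48 times) and in small structures 47.3% (4.56 and 3.26 times). In small structures the bare share was higher on either side, at 55.8%.

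The stretch of chromosome 14 from 4 to 8 Mb, given for comparison, showed the opposite order of stages. It lies within 3000001 to 8500000, the stretch with the most low steps on the autosomes at both earlier stages. That longer stretch held 55 low spermatocyte steps and 54 low round spermatid steps. Low ratios at the earlier stages thus mark it out in these same data, and nothing is read from the opposite order. From 4 to 8 Mb, mean heights in spermatocytes were 1.26 in H2A.L.2-less and 1.60 in WT cells (ratio -0.34). In round spermatids they were 1.26 and 1.57 (-0.32). In condensing nucleosomes they were 1.36 in H2A.L.2-less and 1.34 in WT cells (0.02), and in small structures both were 1.12. On chromosome 7 from 32 to 34 Mb the condensing ratio was 0.02 and those of the earlier stages were 0.07 and 0.09. With 1 list per group, a difference between these stretches has no test.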

How the data were processed

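Per the submitters' processing notes, the tools were deepTools 2.2.4 and Bowtie2 2.2.9, on mm9. The series description gives 3 runs a sample, joined once aligned, and 207000000 to 753000000 reads per sample. The sources used here do not give the position caller, its thresholds or any filter on duplicates and on reads that align to several places, which could change heights in repeated DNA. Summit values are the authors' coverage signal as deposited, in multiples of 4 throughout. No scaling for depth was visible in them. The deposited fuzziness score was used as it stands. All positions were 140 bp wide.

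The region was cut into 100 kb steps. A step needed 20 positions in both lists. Low meant a log2 ratio at or below -0.1. Named steps were the 5 lowest and 5 highest condensing ratios, the edges of low stretches, the extremes of each other pair, the fullest and emptiest steps and the highest position per list. Matching used 40 bp, with a 5000 bp shift for chance and 95% Wilson intervals. Window rank used 4 Mb windows from 3 Mb on. The region and all measures were chosen with earlier results of these data known. The step and matching code was tested on simulated data. No mm9 genome or annotation was used here, so genes were not placed and no sequence is shown. Python 3.11.15, numpy 2.4.6, pandas 2.3.3, scipy 1.17.1 and matplotlib 3.10.9 were used.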

Additional observations from a re-analysis of the deposited data

Results flagged for a closer look

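The genotype ratio of mean heights over the 4 Mb was below 0 in condensing nucleosomes and above 0 at both earlier stages. The difference between condensing nucleosomes and spermatocytes was -0.23 on the log2 scale, and between condensing nucleosomes and round spermatids it was -0.22. Neither difference was tested, since each stage and genotype had 1 list, and the region was chosen for its condensing ratio.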

How the results depend on the processing

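A region value was taken as moved when it shifted by more than a robust SD over 4 Mb windows, a boundary when it shifted by more than 100 kb, a count beyond 1.5 times, and a matched share over chance beyond its 95% Wilson interval at fixed chance. Of 88 alternative values 42 moved and 46 did not. The round spermatid ratio over the region, 0.04, changed sign at or above the list median. Its size was under 0.1 in both cases. The condensing ratio, -0.19, was -0.10 with medians, -0.21 with equal numbers of positions per list, -0.21 with positions at or above the list median and -0.24 over the median of the rest of chromosome 7. In spermatocytes it was 0.014 with equal numbers. In round spermatids it was 0.065 with medians, 0.018 with equal numbers and -0.019 at or above the median. The log2 ratio of position numbers with equal numbers was 0.25 in spermatocytes and -0.16 in small structures, and at or above the median it was 0.15 in spermatocytes and -0.39 in condensing nucleosomes. Low spermatocyte steps numbered 0 with equal numbers, at or above the median and with 200 kb steps. Low round spermatid steps numbered 5 at or above the median and 3 with 50 kb steps. With 50 kb steps 33 of 58 condensing and 24 of 63 small-structure steps were low, and with 200 kb steps 10 and 8 of 20, since these steps differ in number. The stretch with the most low steps began at 7100001 and ended at 7600000 with medians. It began at 8800001 over the rest of chromosome 7 or with a limit of -0.05, at 9700001 with -0.15 and at 9550001 with 50 kb steps, and ended at 10800000 with 200 kb steps. The step function gave 7100001 and 10700000. Of the alternatives added after seeing the data, joining over any gap gave the same and 20 kb steps gave 7160001 and 10680000. Matched shares over chance within 20 bp were 5.37 and within 73 bp 3.04 for spermatocytes. They were 4.0 and 2.29 for round spermatids, 2.68 and 1.80 for condensing nucleosomes, and 6.65 and 3.28 for small structures. For the other shifts the cause was not tested. No paired analysis was possible because each group had 1 list. Depth of single libraries is unknown, and its part in the thin steps was not tested.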

Other observations

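Within a genotype, places of summits were also compared between stages and fragment classes in the low stretches. Of the condensing nucleosome summits there, 39.8% in H2A.L.2-less cells (interval 38.1% to 41.5%) and 36.2% in WT cells (34.7% to 37.7%) had a round spermatid summit of the same genotype within 40 bp. These shares were 1.77 and 1.99 times chance, and over the autosomes they were 1.66 and 1.54 times chance. Of the small-structure summits in the low stretches, 32.3% in H2A.L.2-less cells (interval 30.0% to 34.6%) and 46.6% in WT cells (44.7% to 48.6%) lay within 40 bp of a round spermatid summit. These were 1.58 and 2.38 times chance, against 1.30 and 1.73 times over the autosomes. On condensing nucleosome summits the same small structures gave 30.6% in H2A.L.2-less and 37.3% in WT cells, or 1.61 and 1.68 times chance.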
